A study of Homo sapiens with 6 samples.

Results

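The human ATP-binding cassette (ABC) genes encode proteins that bind and hydrolyse ATP, most of them membrane pumps. They were taken here as the protein-coding genes whose symbol is ABC, a subfamily letter from A to G and a number. By this rule 35 of 21519 genes in the co-culture expression table were ABC genes, as were 15 of 9450 in the METTL1 knockdown table. The knockdown table lists a gene only where it carries an m7G peak. RefSeq GRCh38.p14 holds 45 such protein-coding symbols, and 10 of them (ABCA6, ABCA8, ABCA9, ABCA13, ABCB5, ABCB11, ABCC8, ABCC9, ABCC12 and ABCD2) were not analysed here.

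All libraries came from DLD1, an established human colorectal cancer cell line. RNA-seq was done on wild-type DLD1 cells grown with S-CAFs (library S-CAFs-w13; the series title speaks of senescent CAFs, or cancer-associated fibroblasts) and on a library titled DLD1-W13CM. That library was taken as the CAF co-culture by elimination, since its title states no co-culture and leaves the letters CM unexplained. m7G MeRIP-seq, in which an antibody against 7-methylguanosine pulls down RNA fragments that are sequenced alongside unselected input RNA, was applied to DLD1 cells with METTL1 knockdown (a single construct, sh2) and to control cells (sh-NT); METTL1 is a methyltransferase that writes internal m7G. Each of the 6 groups held 1 library, so there was no replicate check and no test, and a difference describes a pair of libraries. Library sizes worked back from the steps of the FPKM values (fragments per length of gene and size of library) came to 6215547 reads in S-CAFs-w13, 6337932 in DLD1-W13CM, 11625162 in the knockdown input and 10454179 in the control input.

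ABC transporters couple ATP hydrolysis to the movement of a substrate across a membrane. ABCB1, the P-glycoprotein, and several members of subfamilies C and G pump drugs and their conjugates out of cells, and in the intestine such pumps limit uptake from the gut lumen. Most of subfamily A, with ABCB4 and members of subfamily G, moves sterols and phospholipids. Some B members work in mitochondria, subfamily D in peroxisomes and lysosomes, and the E and F proteins have no membrane part and act on ribosomes or translation.

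The upstream bases of 4 genes are shown because ABCB1 and ABCB10 were the members at least 1.5-fold lower in both comparisons, and because ABCA12 and ABCA7 are lipid transporters that differed in opposite directions between the co-culture libraries. The sequences are from RefSeq GRCh38.p14, run 5′ to 3′ along the gene's strand, and carry matches to the GC box (GGGCGG) or the CCAAT box, on either strand, in capitals. For ABCB1 only 30 bases are shown, chr7:87600946-87600975 on the minus strand, bases 91 to 62 upstream of the start that its m7G peak covers, with an inverted CCAAT box. The others are the 250 bases before the start: chr1:229558708-229558957 on the minus strand for ABCB10, chr2:215138627-215138876 on the minus strand for ABCA12 and chr19:1039857-1040106 on the plus strand for ABCA7.
ABCB1: gtggtgaggctgATTGGctgggcaggaaca
ABCB10: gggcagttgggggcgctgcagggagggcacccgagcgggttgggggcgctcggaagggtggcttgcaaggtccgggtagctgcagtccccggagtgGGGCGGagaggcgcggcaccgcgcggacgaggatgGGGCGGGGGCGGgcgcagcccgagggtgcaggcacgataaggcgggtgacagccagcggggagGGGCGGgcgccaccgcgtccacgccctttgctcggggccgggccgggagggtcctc
ABCA12: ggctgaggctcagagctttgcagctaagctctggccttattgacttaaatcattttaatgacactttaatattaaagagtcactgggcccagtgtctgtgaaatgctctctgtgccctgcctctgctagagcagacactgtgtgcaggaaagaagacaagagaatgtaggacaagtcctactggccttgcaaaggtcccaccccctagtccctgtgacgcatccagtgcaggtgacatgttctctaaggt
ABCA7: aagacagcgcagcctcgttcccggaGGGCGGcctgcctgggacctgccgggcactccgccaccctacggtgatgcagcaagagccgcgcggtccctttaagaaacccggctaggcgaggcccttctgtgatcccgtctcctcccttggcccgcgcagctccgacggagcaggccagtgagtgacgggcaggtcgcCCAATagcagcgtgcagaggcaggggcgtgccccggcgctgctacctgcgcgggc
The ABCB10 window held 4 GC boxes, beginning 154, 119, 113 and 56 bases upstream, of which none overlapped another. The ABCA7 window held a GC box 225 bases and a CCAAT box 55 bases upstream. The ABCA12 window held neither of these, nor an E-box (CACGTG) or a TATA box (TATAAA). ABCA12 has 2 starts in RefSeq, and the window before the other is not shown. ABCB1 held a further CCAAT box 238 bases upstream. Of 35116 RefSeq windows of 250 bases, read on both strands, 42.6% held a GC box, 32% a CCAAT box, 6.34% an E-box and 10.7% a TATA box. Among the 53 windows of ABC genes, which stand for 28 of the 35 genes because a gene can have several starts, 25 held a GC box, 11 a CCAAT box, 9 an E-box and 6 a TATA box. A match is a run of letters and not a site shown to be bound.

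The ABC genes spanned a wide range of levels in the co-culture libraries. The highest was ABCE1, at 30.5 FPKM in S-CAFs-w13 and 38.6 FPKM in DLD1-W13CM. The lowest was ABCA10, at 0.0191 FPKM in S-CAFs-w13 and 0.0563 FPKM in DLD1-W13CM, which rests on 1 and 3 reads. Among the 22 genes that averaged 1 FPKM or more, 4 passed 2-fold upwards in S-CAFs-w13 (ABCA2, ABCC3, ABCD4 and ABCG1) and 1 downwards (ABCA12). Over all 14739 genes at that level, 9.08% were 2-fold or more higher and 7.92% 2-fold or more lower. These counts were made on the log2(FPKM + 1) scale, which understates the change of low genes. On that scale the ABC genes divided evenly, 11 above 0 and 11 below, with a median log2 ratio of 0.11 against 0.02 for all genes. Under the authors' own scaling both medians were below 0, at -0.03 for the ABC genes and -0.12 for all genes, and ABCA2 was no longer past 2-fold. In such bulk RNA, fewer cells of a type and less RNA per cell cannot be told apart.

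**Figure D1:**
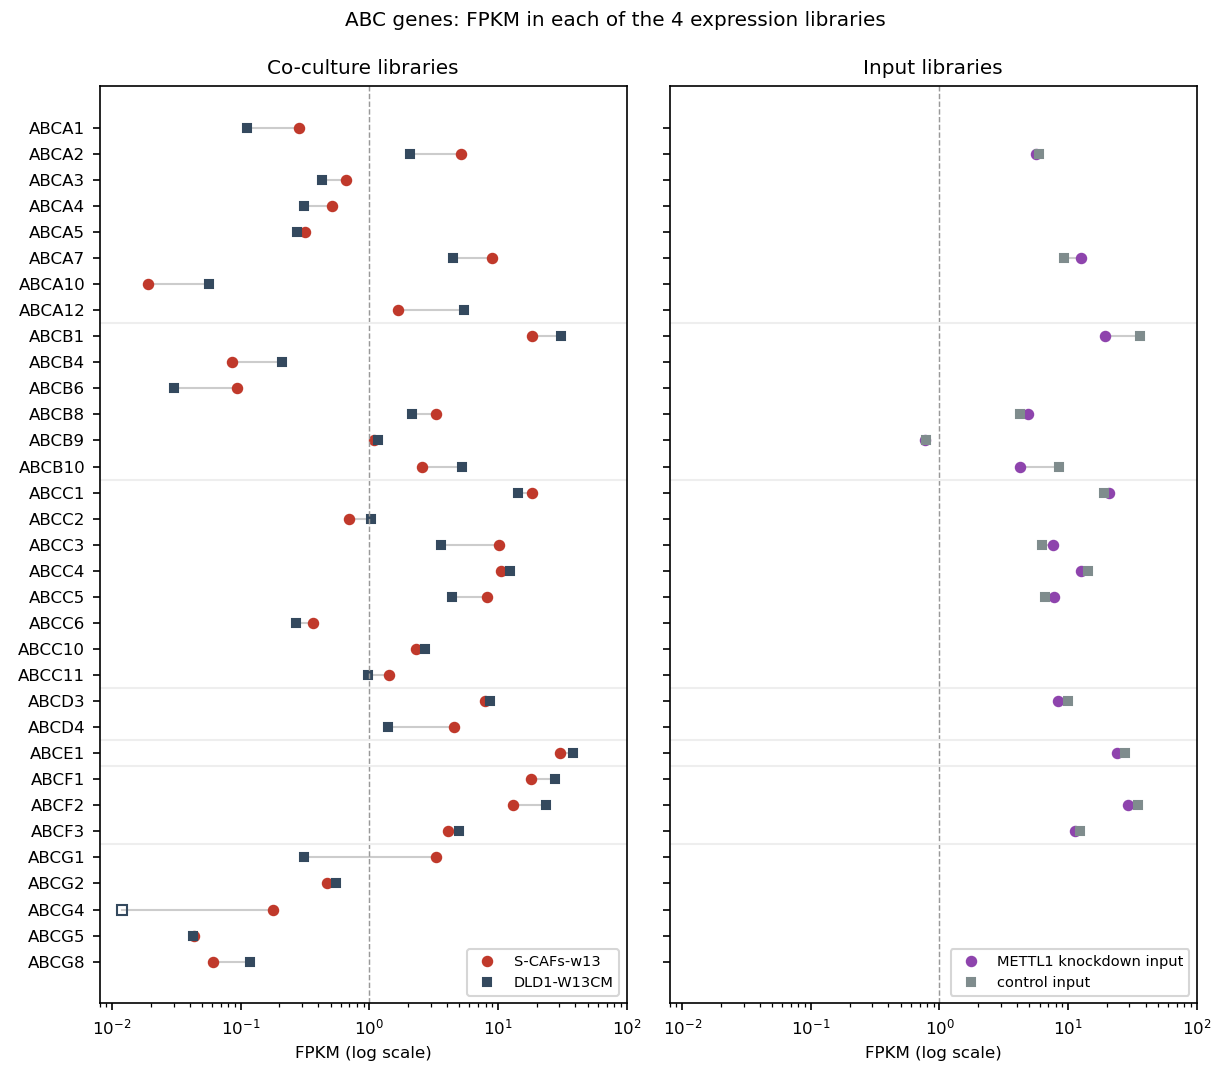
FPKM of ABC genes (rows, by subfamily) on a log axis, with S-CAFs-w13 (circles) and DLD1-W13CM (squares) on the left and METTL1 knockdown input (circles) and control input (squares) on the right. The dashed line is 1 FPKM and the open square marks ABCG4, listed at 0 in DLD1-W13CM. The genes run from 0.0191 FPKM (ABCA10) to 38.6 FPKM (ABCE1), and ABCG1 has the widest gap among genes above 1 FPKM.

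Of the drug and conjugate efflux pumps, ABCB1 was the most abundant in DLD1-W13CM and ABCC3 differed most between the libraries. ABCB1 (ENSG00000085563, chromosome 7) had 18.4 FPKM in S-CAFs-w13 and 31.0 FPKM in DLD1-W13CM, from 664 and 1142 reads. It was thus 1.69-fold lower in FPKM in S-CAFs-w13 (1.53 to 1.86, a 95% Clopper-Pearson interval of the ratio that covers counting error only, as do all intervals below). ABCC3, the basolateral pump for bile salts and glucuronides, had 10.2 FPKM in S-CAFs-w13 and 3.61 FPKM in DLD1-W13CM, 2.82-fold higher (2.42 to 3.31). ABCB1 and ABCC3 thus lay on opposite sides of 1, each beyond counting error. ABCC5, an exporter of cyclic nucleotides and other organic anions, had 8.23 FPKM in S-CAFs-w13 and 4.36 FPKM in DLD1-W13CM, 1.89-fold higher (1.64 to 2.17). Its locus is shared with the antisense gene ABCC5-AS1, which had 2.06 FPKM in S-CAFs-w13 and 0.336 FPKM in DLD1-W13CM from 6 and 1 reads. The sources used here do not state whether reads were counted by strand. Other ABC genes also overlap RefSeq genes, among them ABCB1 (RUNDC3B), ABCE1 (ANAPC10), ABCA12 (SNHG31) and ABCG1 (LOC105372814). The part of such overlaps in the levels was not tested.

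The abundant conjugate pumps ABCC1 and ABCC4 differed little. ABCC1, which exports glutathione conjugates, had 18.4 FPKM in S-CAFs-w13 and 14.3 FPKM in DLD1-W13CM, 1.29-fold higher (1.16 to 1.42). ABCC4, which exports cyclic nucleotides and prostaglandins, had 10.6 FPKM in S-CAFs-w13 and 12.3 FPKM in DLD1-W13CM, 1.16-fold lower (1.03 to 1.31). The remaining efflux pumps were low, and for each of them the interval of the ratio included 1. ABCC10 had 2.31 FPKM in S-CAFs-w13 and 2.69 FPKM in DLD1-W13CM, and ABCC11 had 1.42 FPKM in S-CAFs-w13 and 0.980 FPKM in DLD1-W13CM. ABCC2, the apical conjugate pump, had 0.697 FPKM in S-CAFs-w13 and 1.04 FPKM in DLD1-W13CM. ABCG2, the breast cancer resistance protein, had 0.465 FPKM in S-CAFs-w13 and 0.553 FPKM in DLD1-W13CM. In all, 7 of the 9 efflux genes averaged 1 FPKM or more. Of these 7, 1 was at least 2-fold higher and none lower, where 9.08% and 7.92% of all genes were. Their median log2 ratio was 0.29. The summed level of the 9 genes was nearly equal, 70.7 FPKM in S-CAFs-w13 and 70.9 FPKM in DLD1-W13CM. The share of ABCB1 in that sum was lower in S-CAFs-w13.

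Among ABC genes of 1 FPKM or more, lipid transporters held the largest difference in each direction. ABCG1 (ENSG00000160179, chromosome 21), which passes cholesterol to high-density lipoprotein, had 3.29 FPKM in S-CAFs-w13 and 0.309 FPKM in DLD1-W13CM, from 125 and 12 reads. Its FPKM ratio was 10.6 (5.87 to 21.1), the largest of the ABC genes that had at least 1 FPKM. ABCA12 (ENSG00000144452, chromosome 2), the glucosylceramide transporter of the skin barrier, had 1.66 FPKM in S-CAFs-w13 and 5.46 FPKM in DLD1-W13CM, from 97 and 326 reads, 3.30-fold lower (2.62 to 4.18). It was the only ABC gene at least 2-fold lower on the log2(FPKM + 1) scale. ABCA2, a lipid transporter of late endosomes and lysosomes, had 5.20 FPKM in S-CAFs-w13 and 2.07 FPKM in DLD1-W13CM, 2.51-fold higher (2.07 to 3.06). ABCA7, which moves phospholipids, had 9.02 FPKM in S-CAFs-w13 and 4.49 FPKM in DLD1-W13CM, 2.01-fold higher in FPKM (1.72 to 2.36) but under 2-fold on the log2(FPKM + 1) scale.

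Another 9 lipid or A subfamily genes had means under 1 FPKM, and their intervals, where one could be had, included 1. ABCA1, which hands cholesterol to apolipoprotein A-I, had 0.283 FPKM in S-CAFs-w13 and 0.111 FPKM in DLD1-W13CM, from 10 and 4 reads, a ratio of 2.55 (0.735 to 11.1). The higher ABCG1 level was thus not matched by a difference in ABCA1 that could be detected at this depth. ABCA3, the surfactant lipid transporter, had 0.660 FPKM in S-CAFs-w13 and 0.425 FPKM in DLD1-W13CM. ABCA4, the retinoid transporter of photoreceptors, had 0.510 FPKM in S-CAFs-w13 and 0.308 FPKM in DLD1-W13CM. ABCA5 had 0.318 FPKM in S-CAFs-w13 and 0.276 FPKM in DLD1-W13CM. ABCB4, the phosphatidylcholine transporter of bile, is a close relative of ABCB1, and the pair may share reads. ABCB4 had 0.0859 FPKM in S-CAFs-w13 and 0.211 FPKM in DLD1-W13CM, from 2 and 5 reads. ABCG5 and ABCG8, which form the sterol pump of gut and liver, rested on 1 or 2 reads in each library. ABCG5 had 0.0432 FPKM in S-CAFs-w13 and 0.0424 FPKM in DLD1-W13CM, and ABCG8 had 0.0604 FPKM in S-CAFs-w13 and 0.118 FPKM in DLD1-W13CM. ABCG4 had 0.180 FPKM in S-CAFs-w13 and was listed at 0 in DLD1-W13CM. Over the 13 genes of this group, 4 reached a mean of 1 FPKM. Of these 4, 2 were at least 2-fold higher and 1 lower, where 9.08% and 7.92% of all genes were. The median log2 ratio of 0.94 is that of these 4 genes only.

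**Figure D2:**
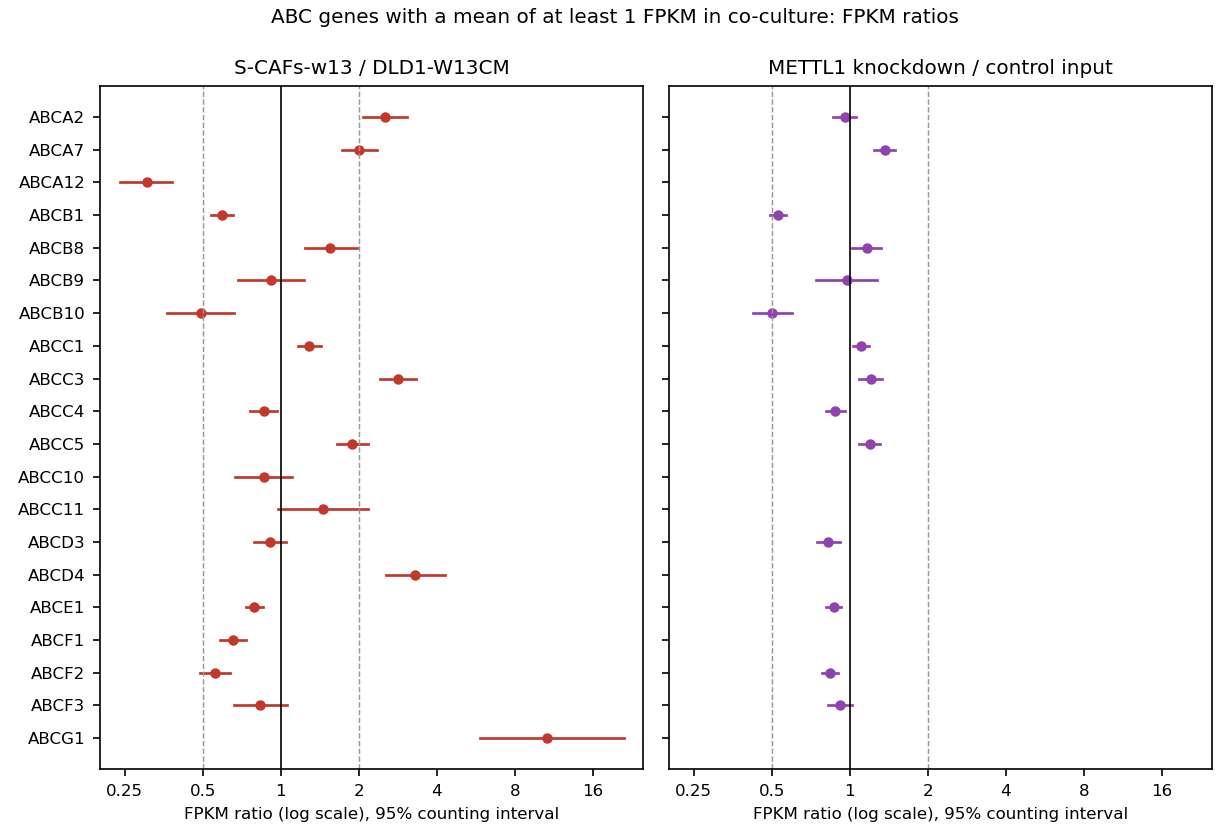
FPKM ratios on a log axis, with 95% counting intervals as bars, of ABC genes that averaged 1 FPKM or more in co-culture: S-CAFs-w13 over DLD1-W13CM on the left, METTL1 knockdown over control input on the right. Solid and dashed lines are a ratio of 1 and 2-fold; ABCG1 (10.6) and ABCA12 (0.303) lie at the ends on the left, while all knockdown ratios lie close to or within 2-fold, with ABCB1 and ABCB10 lowest.

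The mitochondrial B members went different ways. ABCB10 (ENSG00000135776, chromosome 1), an inner membrane transporter linked to heme synthesis, had 2.57 FPKM in S-CAFs-w13 and 5.23 FPKM in DLD1-W13CM, from 68 and 141 reads, 2.03-fold lower (1.51 to 2.76). ABCB8 had 3.31 FPKM in S-CAFs-w13 and 2.13 FPKM in DLD1-W13CM, 1.55-fold higher (1.23 to 1.96). ABCB10 and ABCB8 thus lay on opposite sides of 1, each beyond counting error. ABCB6 was low, at 0.0927 FPKM in S-CAFs-w13 and 0.0303 FPKM in DLD1-W13CM. ABCB9, a lysosomal peptide transporter, had 1.08 FPKM in S-CAFs-w13 and 1.18 FPKM in DLD1-W13CM, with an interval that included 1.

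In subfamily D the lysosomal ABCD4 differed far more than the peroxisomal ABCD3. ABCD4 (ENSG00000119688, chromosome 14), which exports cobalamin from lysosomes, had 4.55 FPKM in S-CAFs-w13 and 1.39 FPKM in DLD1-W13CM, from 248 and 77 reads, 3.28-fold higher (2.53 to 4.30). Its partner LMBRD1 was also higher in FPKM, at 15.4 FPKM in S-CAFs-w13 and 8.60 FPKM in DLD1-W13CM, though under 2-fold. ABCD3, which carries branched-chain fatty acids into peroxisomes, had 7.92 FPKM in S-CAFs-w13 and 8.69 FPKM in DLD1-W13CM. The interval of its ratio included 1. In subfamily C, ABCC6 has near-identical pseudogene copies, so its counts are uncertain; it had 0.361 FPKM in S-CAFs-w13 and 0.271 FPKM in DLD1-W13CM.

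All 4 genes of the ribosome-associated E and F proteins had a lower FPKM in S-CAFs-w13, 3 of them beyond counting error. ABCE1, which splits ribosomes for recycling, was 1.26-fold lower in FPKM (1.17 to 1.37). ABCF1, which binds the initiation factor eIF2, had 18.1 FPKM in S-CAFs-w13 and 27.7 FPKM in DLD1-W13CM, 1.53-fold lower (1.37 to 1.71). ABCF2 had 13.1 FPKM in S-CAFs-w13 and 23.6 FPKM in DLD1-W13CM, 1.79-fold lower (1.58 to 2.04). For ABCF3, with 4.11 FPKM in S-CAFs-w13 and 4.94 FPKM in DLD1-W13CM, the interval included 1. These 4 genes summed to 65.9 FPKM in S-CAFs-w13 and 94.8 FPKM in DLD1-W13CM, with a median log2 ratio of -0.46. None was past 2-fold, where 9.08% of all genes were higher and 7.92% lower. Of the translation partners listed beside them, the release factor gene ETF1 had 38.3 FPKM in S-CAFs-w13 and 72.2 FPKM in DLD1-W13CM. EIF2S1 had 19.9 FPKM in S-CAFs-w13 and 25.2 FPKM in DLD1-W13CM, 1.26-fold lower (1.14 to 1.40). For PELO, with 8.43 FPKM in S-CAFs-w13 and 9.80 FPKM in DLD1-W13CM, the interval included 1.

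Across the ABC genes, whatever their level, the interval of the ratio lay above 1 for 9 genes, below 1 for 7 and included 1 for 18. The 13 genes under 1 FPKM are all among those 18, apart from ABCG4, for which no interval could be had.

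Several genes of sterol sensing were, like ABCG1, higher in S-CAFs-w13. Of 13 sterol and lipid sensing genes that averaged 1 FPKM or more, 4 were at least 2-fold higher in S-CAFs-w13 and none lower on the log2(FPKM + 1) scale, where 9.08% and 7.92% of all genes were, with a median log2 ratio of 0.53. The sterol carrier STARD4 had 23.2 FPKM in S-CAFs-w13 and 4.89 FPKM in DLD1-W13CM. SREBF1 had 25.5 FPKM in S-CAFs-w13 and 10.1 FPKM in DLD1-W13CM, and SREBF2, like it a gene of the SREBP factors that drive sterol uptake and synthesis, had 37.1 FPKM in S-CAFs-w13 and 15.01 FPKM in DLD1-W13CM. Others were lower in S-CAFs-w13 by less than 2-fold, with intervals below 1. SOAT1, which esterifies cholesterol, was 1.55-fold lower in FPKM (1.28 to 1.88), RXRA 1.36-fold (1.12 to 1.66) and MYLIP 1.3045-fold (1.09 to 1.57). The genes of the liver X receptors, for which ABCA1 and ABCG1 are classical targets, did not move together. NR1H3 had 0.958 FPKM in S-CAFs-w13 and 2.16 FPKM in DLD1-W13CM, 2.25-fold lower in FPKM (1.41 to 3.68), whereas NR1H2 had 8.57 FPKM in S-CAFs-w13 and 5.63 FPKM in DLD1-W13CM.

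Of 11 genes of xenobiotic sensing and conjugation that averaged 1 FPKM or more, 1 was at least 2-fold higher and 3 were lower. Over all genes the shares were 9.08% and 7.92%. The median log2 ratio of the 11 genes was -0.08. ARNT, the partner of the aryl hydrocarbon receptor, had 13.4 FPKM in S-CAFs-w13 and 5.74 FPKM in DLD1-W13CM. CYP1A1, the enzyme that this receptor classically induces, had 0.0468 FPKM in S-CAFs-w13 and 3.49 FPKM in DLD1-W13CM, from 1 and 76 reads. CYP1B1, another such target, had 4.76 FPKM in S-CAFs-w13 and 10.9 FPKM in DLD1-W13CM. KEAP1, the inhibitor of NRF2, had 5.90 FPKM in S-CAFs-w13 and 16.3 FPKM in DLD1-W13CM. Others of the list lay within 2-fold. For NFE2L2, which encodes NRF2, and for GCLC the interval included 1. GSTP1 was 1.56-fold lower in FPKM in S-CAFs-w13 (1.41 to 1.72), GCLM 1.15-fold lower (1.01 to 1.32) and AHR, the receptor gene, 1.73-fold higher (1.51 to 1.98). Among ABC proteins under other names, the chloride channel CFTR was lower at 0.888 FPKM in S-CAFs-w13 and 3.001 FPKM in DLD1-W13CM, 3.38-fold (2.43 to 4.78). The peptide transporter genes TAP1 and TAP2 stayed within 2-fold. Of 9 partner genes that averaged 1 FPKM or more, none was past 2-fold, where 9.08% of all genes were higher and 7.92% lower.

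Of 12 colon epithelial markers 11 were listed, each averaging 1 FPKM or more, summing to 3326 FPKM in S-CAFs-w13 and 2155 FPKM in DLD1-W13CM. The keratins KRT8 and KRT18 made up most of both sums, and the list held members on either side of 1. Of the 11, 3 were at least 2-fold higher and 1 was lower, where 9.08% and 7.92% of all genes were. That 1 was CDX2, at 6.83 FPKM in S-CAFs-w13 and 18.99 FPKM in DLD1-W13CM, while CDH1 had 102.8 FPKM in S-CAFs-w13 and 133.3 FPKM in DLD1-W13CM. Of 19 fibroblast markers 10 were listed, 3 that averaged 1 FPKM or more, summing to 12.95 FPKM in S-CAFs-w13 and 10.58 FPKM in DLD1-W13CM. Their median log2 ratio was -0.16, over the 3 at 1 FPKM or more, and single markers lay on either side of 1. COL1A1, a defining collagen, had 0.229 FPKM in S-CAFs-w13 and 0.0482 FPKM in DLD1-W13CM, from 14 and 3 reads, and PDGFRB had 0.564 FPKM in S-CAFs-w13 and 0.0221 FPKM in DLD1-W13CM, from 25 and 1 reads. The matrix gene FN1 was lower, at 1.71 FPKM in S-CAFs-w13 and 3.12 FPKM in DLD1-W13CM, from 184 and 342 reads. Of 5 leukocyte and 5 endothelial markers, 1 and 4 were listed, the endothelial ones summing to 2.389 FPKM in S-CAFs-w13 and 1.293 FPKM in DLD1-W13CM. The part of these other cell types in the ABC values was not tested. Genes of the mitochondrial genome took 16.3% of reads in S-CAFs-w13 and 20.2% in DLD1-W13CM, and with them left out ABCG5 alone changed sign. METTL1 itself had 1.78 FPKM in S-CAFs-w13 and 4.82 FPKM in DLD1-W13CM, 2.71-fold lower (1.75 to 4.29).

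The second comparison asks how the same genes stood after METTL1 knockdown. The targeted gene had 3.28 FPKM in the knockdown input and 5.80 FPKM in the control input, 1.77-fold lower (1.37 to 2.29), so the knockdown was partial at the RNA level. Of the 14 ABC genes that averaged 1 FPKM or more, none was at least 2-fold higher and none lower on the log2(FPKM + 1) scale, where the shares of 8400 genes were 0.429% and 0.56%. The median log2 ratio was -0.09, against 0.01 for all genes, with 5 ABC genes above 0 and 9 below. The intervals lay above 1 for 5 of the 15 genes, below 1 for 6 and included 1 for 4. ABCG1, ABCA12 and ABCD4 have no row in this table and were not analysed in this comparison.

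The drug pump ABCB1 and the mitochondrial ABCB10 came closest to 2-fold. ABCB1 had 19.3 FPKM in the knockdown input and 36.5 FPKM in the control input, from 1304 and 2215 reads, 1.89-fold lower (1.76 to 2.02). ABCB10 had 4.24 FPKM in the knockdown input and 8.43 FPKM in the control input, from 210 and 375 reads, 1.99-fold lower (1.67 to 2.36). In the authors' deposited table the log2 fold change was -0.93 for ABCB1 and -1.004 for ABCB10. No other ABC gene was more than 1.5-fold from 1 in this comparison.

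Among the other efflux pumps the differences were small, each beyond counting error. ABCC1 had 20.9 FPKM in the knockdown input and 18.9 FPKM in the control input, 1.104-fold higher (1.03 to 1.18). ABCC3 had 7.59 FPKM in the knockdown input and 6.30 FPKM in the control input, 1.20-fold higher (1.09 to 1.34). ABCC5 had 7.83 FPKM in the knockdown input and 6.56 FPKM in the control input, 1.19-fold higher (1.09 to 1.31). These conjugate pumps were thus slightly higher while ABCC4 was lower. ABCC4 had 12.7 FPKM in the knockdown input and 14.4 FPKM in the control input, 1.13-fold lower (1.04 to 1.23). The summed level of the 5 efflux genes was 68.3 FPKM in the knockdown input and 82.7 FPKM in the control input, and ABCB1 alone differed by more than that.

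Of the lipid transporters, ABCA7 had 12.7 FPKM in the knockdown input and 9.29 FPKM in the control input, 1.36-fold higher (1.25 to 1.49). ABCA2 had 5.67 FPKM in the knockdown input and 5.92 FPKM in the control input, with an interval that included 1. ABCA7 was the ABC gene with the highest ratio in this comparison. In mitochondria, ABCB8 had 4.87 FPKM in the knockdown input and 4.19 FPKM in the control input, 1.16-fold higher (1.02 to 1.33). ABCB9 had 0.770 FPKM in the knockdown input and 0.792 FPKM in the control input. The peroxisomal ABCD3 had 8.29 FPKM in the knockdown input and 10.04 FPKM in the control input, 1.21-fold lower (1.09 to 1.34).

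The E and F genes of this table again had ratios below 1, nearer to 1 than in co-culture. ABCE1 had 24.0 FPKM in the knockdown input and 27.7 FPKM in the control input, 1.15-fold lower (1.08 to 1.23). ABCF2 had 29.4 FPKM in the knockdown input and 35.1 FPKM in the control input, 1.19-fold lower (1.11 to 1.28). ABCF3 had 11.3 FPKM in the knockdown input and 12.3 FPKM in the control input, with an interval that included 1. The translation partners were not lower here. ETF1 had 84.2 FPKM in the knockdown input and 84.1 FPKM in the control input, with an interval that included 1. The ratio of knockdown to control input was 1.08 (1.00 to 1.17) for EIF2S1 and 1.36 (1.16 to 1.58) for PELO. Of the 10 sterol sensing and 9 xenobiotic genes measured here, none was past 2-fold, where 0.429% of all genes were higher and 0.56% lower. The median log2 ratios of these lists were 0.15 and 0.11. CFTR had 3.93 FPKM in the knockdown input and 6.22 FPKM in the control input, 1.58-fold lower (1.39 to 1.81).

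Both comparisons measured 14 ABC genes that averaged 1 FPKM or more, and they share no library. Signs were counted here whatever the interval of the ratio. Of these genes, 7 were lower in both S-CAFs-w13 and the knockdown input (ABCB1, ABCB10, ABCC4, ABCD3, ABCE1, ABCF2 and ABCF3). The interval of ABCF3 included 1 in both comparisons and that of ABCD3 did in co-culture, so counting error alone leaves those signs unsettled. Another 5 were higher in both (ABCA7, ABCB8, ABCC1, ABCC3 and ABCC5), and 2 differed in sign. The sign was thus shared by 85.7% of the ABC genes and by 51.9% of all 7935 genes measured in both, a description chosen after the values were seen. ABCB1 and ABCB10 were at least 1.5-fold lower in FPKM in both comparisons, as were 1.34% of the 7935 genes.

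The pull-down compared which ABC transcripts carried an m7G peak and how its strength stood after the knockdown. Of the 22 ABC genes that averaged 1 FPKM or more in the co-culture libraries, 15 had a listed peak (68.2%), as did 74.7% of 10460 protein-coding genes at that level. The 7 without one included ABCA12, ABCC10, ABCC11, ABCD4, ABCF1 and ABCG1, of which ABCF1 was the most abundant with a mean of 22.9 FPKM. Over all 35 ABC genes, whatever their level, the 15 with a peak had a median level of 6.90 FPKM and the 20 without one of 0.459 FPKM. By the authors' annotation 8 of the 15 peaks were in the 5′ UTR (53.3%), 5 in coding sequence (33.3%), 2 in other exon (13.3%) and none in the 3′ UTR. All 9450 peaks of the authors' deposited table had shares of 49.5%, 29.5%, 18.6% and 2.06% in these classes.

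Pull-down strength varied widely among the 15 genes. In the authors' deposited table the fold enrichment of IP over input had a median of 24.6, against 12.4 over all peaks. The conjugate pump ABCC3 had the strongest peak, at 124 in the authors' deposited table, higher than 99.8% of all peaks. It lies at chr17:50634807-50635342 on the plus strand, in the 5′ UTR. ABCB9 followed with 61.7, ABCA2 with 49.4, ABCC5 with 35.2 and ABCC1 with 33.3 in the authors' deposited table, each annotated as 5′ UTR. The ABCB1 peak, chr7:87600170-87601003 on the minus strand in the 5′ UTR, had a fold enrichment of 27.5 in the authors' deposited table. Next came ABCF3 with 26 and ABCB10 with 24.6 in the authors' deposited table, the ABCB10 peak being annotated as coding sequence at chr1:229558305-229558695 on the minus strand. Intermediate values in the authors' deposited table were 13.4 for ABCB8, 9.68 for ABCF2 and 9.13 for ABCC4. The weakest were ABCA7 with 2.57, ABCD3 with 1.43 and ABCE1 with 1.32 in the authors' deposited table. ABCE1 thus had the weakest listed peak of the ABC genes, higher than only 0.254% of all peaks, at chr4:145120082-145121058 on the plus strand. It was the most abundant ABC transcript in co-culture, but not in the inputs of the pull-down. There ABCE1 had 24.0 FPKM (knockdown) and 27.7 FPKM (control), below ABCF2 with 29.4 FPKM (knockdown) and 35.1 FPKM (control).

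**Figure D3:**
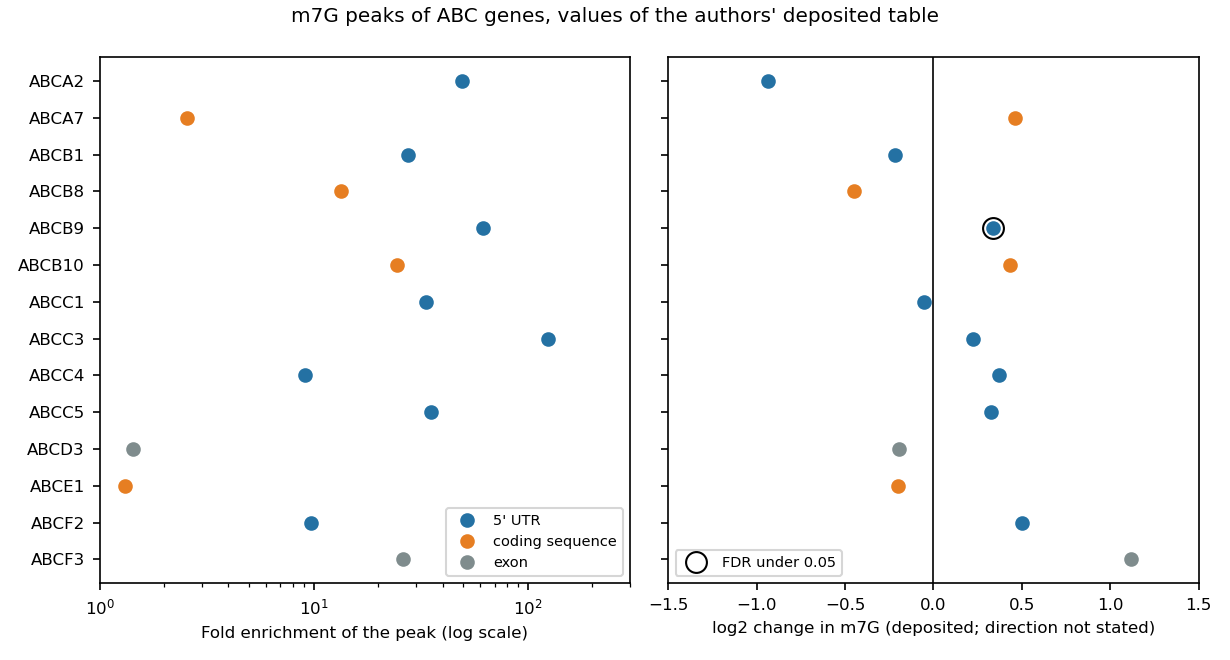
m7G peaks of ABC genes from the authors' deposited table: fold enrichment of IP over input (left, log axis) and log2 change in m7G (right), coloured by annotated class, with a ring where the false discovery rate (FDR) is under 0.05. Enrichment runs from 1.32 (ABCE1) to 124 (ABCC3), and ABCB9 alone is ringed.

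Many of the stronger ABC peaks lay at a RefSeq start, although ABC peaks were less often near one than all peaks (58.3% against 76.7%, below). In 9 of the 15 genes a peak block came within 250 bases of a RefSeq start or the outer edge of the gene. The share of all peaks was not computed on that measure. Whether peaks at a start reflect internal m7G was not tested. The ABCB1 block ran from 119 bases upstream to 129 bases downstream of a RefSeq start, so the 30 bases printed above lie inside it. That start is the downstream of 2 in RefSeq, and the block lies 112292 bases from the outer edge of the gene. The ABCB10 block began 12 bases after the start and ended at base 402, just downstream of the window with its GC boxes. Blocks also covered the start or gene edge in genes that included ABCA2, ABCB8, ABCC3, ABCC5 and ABCF3, and began 5 bases after it in ABCC4. By contrast, the weak peaks of ABCE1, ABCA7 and ABCD3 lay 21771, 24947 and 81110 bases downstream of the nearest RefSeq start. All distances here run along the chromosome, introns included. Among the 12 peaks whose gene has an entry in the RefSeq promoter table, 7 were within 250 bases of a start (58.3%), compared with 76.7% of 6965 peaks of the authors' deposited table.

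**Figure D4:**
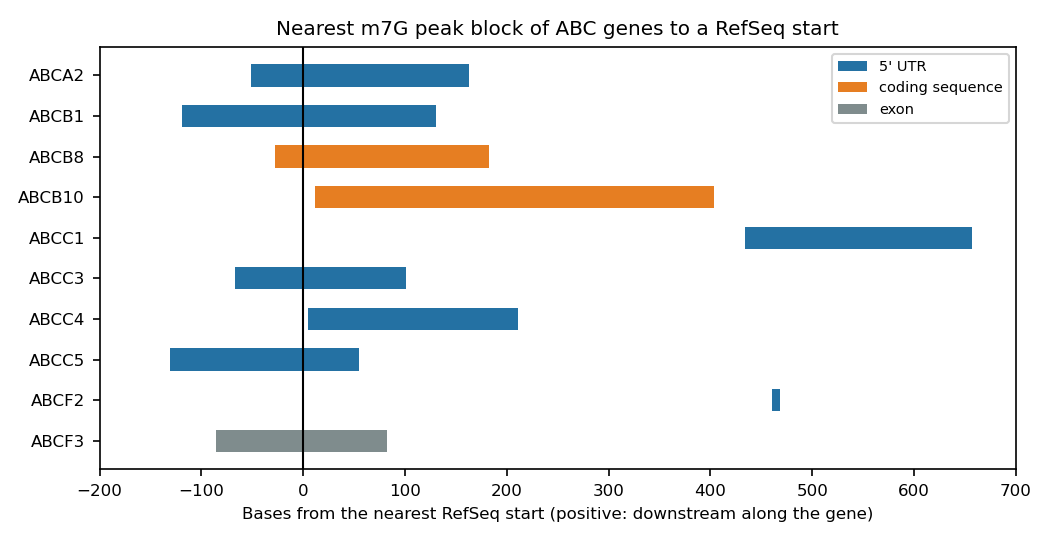
Position of the peak block nearest to a RefSeq start or gene edge, in bases along the gene with the start at 0, for ABC genes in which it lies close to one. Blocks of ABCA2, ABCB1, ABCB8, ABCC3, ABCC5 and ABCF3 cross the start, those of ABCB10 and ABCC4 begin 12 and 5 bases after it, and those of ABCC1 and ABCF2 begin 434 and 460 bases after it.

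The change in m7G between the knockdown and control lines showed no common direction for the ABC genes. The deposited table does not state the direction of this change, which was read here as knockdown over control. Of the 15 log2 changes in the authors' deposited table, 7 were below 0 (46.7%) and 8 above, against 48.6% of all peaks below 0. Their median was 0.23, against 0.0043 for all peaks. By the FDR of the authors' deposited table, with 0.05 as the limit, 1 ABC peak changed, that of ABCB9, as did 5.25% of all peaks. By the unadjusted p of the authors' deposited table, with the same limit, 3 did, compared with 16.1% of all peaks. ABCB9 had a log2 change of 0.34 (FDR 0.038) in the authors' deposited table. ABCF3 had a log2 change of 1.12 (p = 0.0162, FDR 0.189) in the authors' deposited table. It thus missed the FDR threshold, and the sources used here do not give the model behind these p-values.

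The ABCB9 peak lies at chr12:122980601-122981380 on the minus strand, 5487 bases upstream of the nearest RefSeq start of ABCB9. All of its 780 bases fall inside ARL6IP4, a gene that has its own listed peak on the plus strand. The peaks shared 775 bases. The ARL6IP4 peak had a fold enrichment of 40 and a log2 change in m7G of 0.32 (FDR 0.0537) in the authors' deposited table, close to the ABCB9 values of 61.7 and 0.34. The sources used here do not state whether pull-down reads were assigned by strand, and without strand the signals of these genes cannot be told apart. Peak blocks also overlapped other RefSeq genes in ABCA2 (LINC02908), ABCC4 (LOC102724149) and ABCF2 (the readthrough gene ABCF2-H2BK1).

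For ABCB1 and ABCB10, the genes with the lowest input levels relative to control, the m7G changes were small and of opposite sign. In the authors' deposited table the log2 change was -0.22 for ABCB1 (FDR 0.676) and 0.43 for ABCB10 (FDR 0.676). ABCA2 had a log2 change of -0.94 (FDR 0.671) in the authors' deposited table, nearly the size of that of ABCF3 but with a p of 0.353. A large change on the log2 scale was thus not by itself a low p in this table. For ABCC3, whose peak was the strongest, the log2 change was 0.23 (FDR 0.676) in the authors' deposited table. The other 8 genes reported here had log2 changes between -0.45 (ABCB8) and 0.50 (ABCF2) in the authors' deposited table, none with an FDR under 0.05.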

How the data were processed

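Per the labels' protocols, RNA was extracted with TRIzol and libraries were prepared with a TruSeq kit. The tools in the submitters' processing notes are HISAT2 2.1.0, SAMtools 1.10, featureCounts 1.6.3, cutadapt 2.5, HOMER 4.10.4 and DESeq2, and the genome builds are hg38, GRCh38 and GRCm38; the sources used here do not give the m7G peak caller. Per the file headers, the authors deposited FPKM per gene and, for expression, log2 fold changes and p-values, and the unit of the input columns of the knockdown table was inferred from their values. Per the file headers, the authors deposited for each peak a fold enrichment (a ratio), the log10 of its p-value, a score for its FDR, and a log2 change in m7G with the log10 of its FDR and p-value. Peak starts were shifted by 1 base to count from 1.

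The ABC genes, the other gene lists and the thresholds were chosen with earlier results of these data known. Genes that averaged 1 FPKM or more were compared as log2((FPKM + 1)/(FPKM + 1)) and counted past 2-fold; printed folds are ratios of FPKM itself. Such genes were named with their values, as were all efflux and lipid genes and the peaks, except that some genes counted in the totals are not reported here. FPKM ratios were ratios of whole numbers times a constant, which gave the smallest whole reads for 99.9% of genes above 0 in both libraries of a table. For co-culture, 54.5% of the RefSeq lengths used fitted the library size. For the knockdown the lengths were those recovered from the co-culture values, and 53% of them fitted, so that fit is not independent of the first. Since the true reads may be a multiple of the smallest, the 95% Clopper-Pearson intervals are the widest possible for counting error. PCR copies of a molecule are counted as if independent. The read recovery was tested on simulated data. Alternatives were another pseudocount, filter, centring and scaling. Python 3.11.15, pandas 2.3.3, numpy 2.4.6, scipy 1.17.1 and matplotlib 3.10.9 were used.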

Additional observations from a re-analysis of the deposited data

How the results depend on the processing

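With means of at least 5 FPKM instead of 1, 11 ABC genes were left in the co-culture comparison, 1 of them (ABCC3) at least 2-fold higher in S-CAFs-w13 and 0 lower, since the other genes past 2-fold are less abundant. Of all 7347 genes at that level, 8.7% were higher and 7.34% lower. With the median of all genes set to 0, or under the authors' scaling, 3 were higher and 1 lower, ABCA2 falling short of 2-fold. Of all genes, 8.73% were higher and 8.2% lower with the median at 0. Under the authors' scaling the shares were 6.7% and 10.5%. The authors' scaling lay 0.14 (log2) below the FPKM ratios in co-culture (a shift of -0.14) and changed the sign of ABCA5, ABCB6, ABCC6 and ABCG5, all under 1 FPKM. The knockdown comparison gave no ABC gene past 2-fold under any setting tried, although the log2 fold change of ABCB10 in the authors' deposited table was -1.004. Of all genes, at most 1.33% were past 2-fold in either direction under these settings. At an unadjusted p under 0.05 in the authors' deposited table, 3 ABC peaks changed, 1 of them lower in the knockdown. With inputs of at least 1 FPKM, 0 peaks at an FDR under 0.05 remained, because ABCB9 lies under that level. Read as control over knockdown, a setting chosen after the data were seen, 8 peaks would be lower in place of 7. No paired analysis was possible because each group held 1 library, and for the same reason no replicate could be left out. Depth limits the 13 genes under 1 FPKM most, where a few reads set the level.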
